A study of Mus musculus with 3 samples.

Results

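The 10 genes described here, Prkaa1, Prkag2, Stk11, Sesn1, Sesn3, Rragd, Rptor, Mtor, Tsc1 and Flcn, encode sensors and switches of the AMPK and mTORC1 pathways. They were chosen by symbol, and all 10 were found among the 23282 gene rows of the data and passed the filter on low values. They were read in CD4 T cells from spleen and lymph node of C57BL/6 mice (C57BL/6J in the study's methods), for which the study states females 6 to 8 weeks old. The cells of all groups were activated with anti-CD3 and anti-CD28 antibodies, each at 2 µg/ml, and cultured for 72 h in 1 of 3 media. Complete medium (CM) is RPMI with serum. Dialyzed medium (DM) combines RPMI that lacks amino acids with serum whose small molecules were reduced by dialysis. DM+Met is the same medium supplemented with methionine at 30 µM. Dialysis reduced the nutrients of the serum and did not remove all of them, and the study found methionine still present in DM. DM+Met therefore differs from DM by added methionine and not by its presence. Each medium has 2 libraries, described by the study as biologically independent samples, so 6 libraries were compared.

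AMPK is a kinase of a catalytic α, a scaffolding β and an AMP-binding γ subunit. It is activated when cellular energy is low, by phosphorylation through LKB1 and other kinases, and restrains growth while promoting catabolism. mTORC1 is the opposing growth kinase. It is recruited to lysosomes by Rag GTPases when amino acids are present and switched on there by Rheb, which the TSC complex holds inactive. Sestrins and SAMTOR relay leucine and S-adenosylmethionine shortage to the Rag GTPases, and AMPK reaches mTORC1 through TSC2 and raptor. In T cells both pathways couple activation to nutrient supply.

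Values are log2(CPM + 1), where CPM is the read count of a gene scaled to the same library size after TMM scaling of the libraries. The 3′-end kit yields a read near the poly(A) end of a transcript whatever its length. Levels of different genes can thus be compared without regard to length, except where genes overlap at that end. Depth was 8504742 to 12377285 reads per library. The ribosomal precursor Rn45s was 32.0% ± 1.33 of all reads for CM, 37.7% ± 0.780 for DM and 17.8% ± 3.25 for DM+Met (SD, n = 2). Across tested rows the correlation of DM library 2 was 0.919 with DM library 1, and 0.947 and 0.940 with the libraries of DM+Met. CD4 T cell markers were read in every library. Over 8 genes they summed to 1885 and 2025 CPM for CM, 2578 and 2257 for DM and 2449.5 and 2466 for DM+Met. Between DM and CM 4 of the 8 were called, against 16.9% of all rows. Cd5, Cd2 and Cd3g were higher in DM and Cd28 was lower. Cd5 and Cd2 were also called higher in DM+Met than in CM. The 9 markers of myeloid and antigen-presenting cells summed to 42.8 and 55.9 CPM for CM, 124 and 168 for DM and 169 and 191 for DM+Met. Most of that gap was Mmp12, at 7.17 and 0 CPM for CM, 109 and 73.1 for DM and 104 and 94.7 for DM+Met. The other 8 summed to 48.7 and 42.8, 59.1 and 51.0, and 65.2 and 96.2 CPM. Between DM and CM the 9 markers went both ways. Lyz2 and Mmp12 were called higher in DM, and Csf1r and Itgax were higher in both DM libraries without a call. Tyrobp and Fcer1g were lower in both DM libraries than in CM, and Itgam, Adgre1 and Cd68 overlapped. Between DM+Met and CM, 5 of the 9 (Lyz2, Cd68, Itgax, Fcer1g and Mmp12) lay higher in both DM+Met libraries and 0 lower. The median difference of the 9 was 0.768 there, against 0.061 over all rows. Over all rows 60.9% did not overlap in that comparison, and 54.1% between DM and CM. The 5 markers of CD8 T and NK cells summed to 73.4 and 77.2 CPM in CM against 30.6 to 39.4 in the other 4 libraries. Cd8a and Cd8b1 made that gap, with 66.4 and 74.2 CPM together in CM against 23.4 to 34.2. The NK genes Klrb1c, Klrd1 and Ncr1 did not share it, with 3.07 and 7.06 CPM together in CM against 5.20 to 10.7, and Klrb1c was called higher in DM+Met than in CM (adjusted p 0.0294). Markers of B cells (6 genes) summed to 60.0 to 90.5 CPM and those of other cells (4 genes) to 54.5 to 83.9 CPM. Among them Cr2 and Pecam1 were called higher and Epcam lower in DM than in CM, and Hbb-bs lower in DM+Met than in CM. No myeloid marker and no CD8 T or NK marker was at 0 in all libraries. The study isolated CD4 T cells with magnetic beads or a cell sorter. The part of other cells in the differences below was not tested, and in bulk RNA fewer cells of a type cannot be told apart from less RNA per cell.

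None of the 10 genes passed the test in any comparison of media (limma, adjusted p below 0.05 over 12770 rows). Between DM and CM 16.9% of all rows passed, between DM+Met and CM 15.3%, and between DM+Met and DM, which differ in added methionine alone, 0.0548% or 7 rows. At an unadjusted p below 0.05 there were 2 of the 10 between DM and CM, namely Stk11 and Sesn1, and 4170 rows overall. Prkag2 alone reached that level between DM+Met and DM, among 1238 rows, and no member did between DM+Met and CM, among 3870 rows. The limma-voom fit on the recovered reads also called 0 of the 10 in each comparison.

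**Figure D1:**
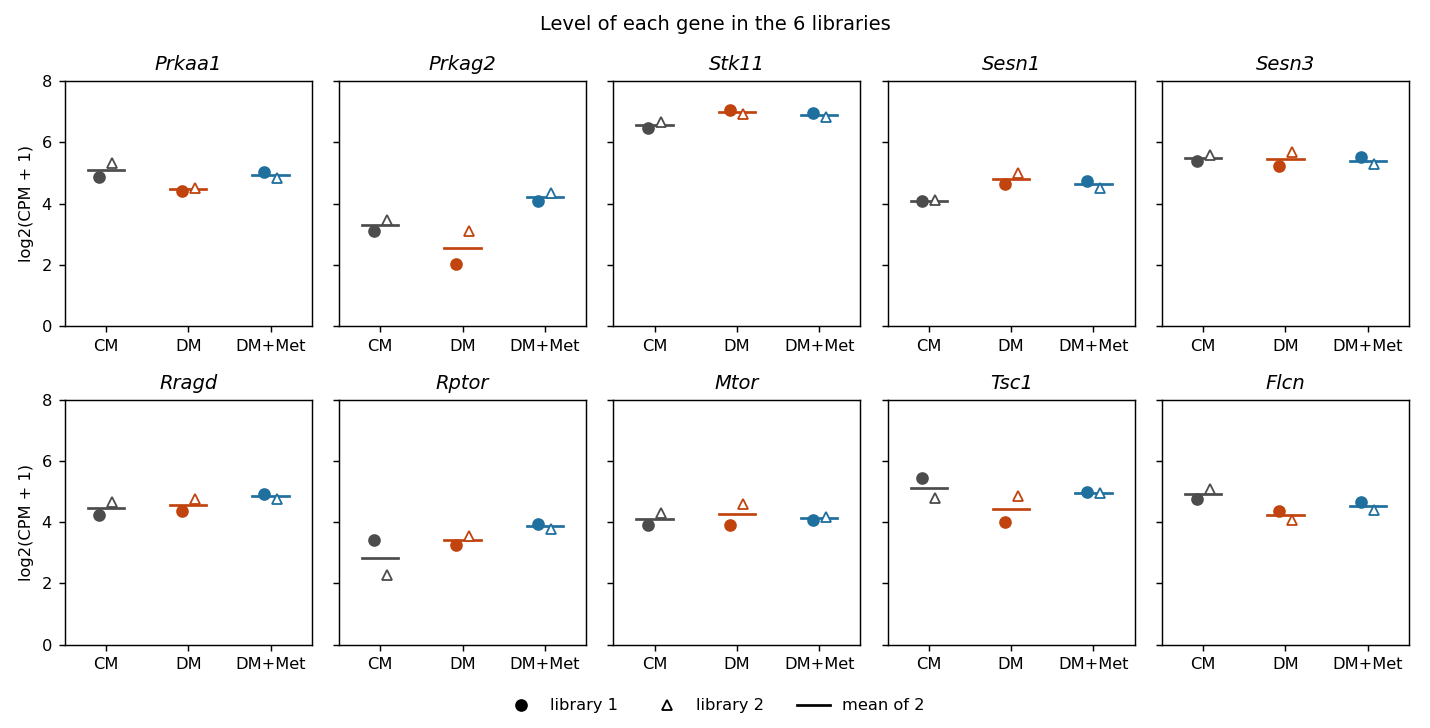
Level of each of the 10 genes as log2(CPM + 1) on the vertical axis in CM, DM and DM+Met. Circles and open triangles are libraries 1 and 2 of a medium and the bar is their mean. Stk11 lies highest in every library, and the widest gaps between libraries of a medium are those of Prkag2 in DM and Rptor in CM.

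The genes covered a wide span of levels, from 9.94 CPM for Rptor to 113 CPM for Stk11 as the mean over 6 libraries. In order of falling level they were Stk11, Sesn3, Tsc1, Prkaa1, Rragd, Flcn, Sesn1, Mtor, Prkag2 and Rptor. Stk11 lay above all others without overlap, with 87.8 to 132 CPM against 36.1 to 50.4 CPM for Sesn3. Its level may include reads of Cbarp, a gene that overlaps its 3′ end, so its rank is uncertain. From Sesn3 down, each gene overlapped the next in the order over the 6 libraries, so neighbours were not separated beyond their spread. Mtor stood near the middle of all tested rows, with 51.4% of them at a lower mean level, and Stk11 was above 90.3% of them.

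To see which letters stand near the start sites of the genes whose DM and CM libraries separated, promoter windows from 250 bases before to 50 bases after each start were taken from RefSeq on GRCm38.p6. All 10 genes matched, with 13 windows. The FOXO motif GTAAACA, searched on both strands, was found in 3.65% of 32851 promoter windows. Sesn1 and Stk11, the pair whose DM libraries both lay above both CM libraries, had it, 22 and 16 bases after the start. The other Sesn1 window did not hold it. Of all tested rows, 54.1% had DM and CM libraries that did not overlap. The stretches below show the motif in capitals with 10 bases on each side.
Sesn1, chr10:41810586-41810612, plus strand: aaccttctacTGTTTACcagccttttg
Stk11, chr10:80115801-80115827, plus strand: gcgcagggcgGTAAACAagatggcggc
The cAMP response element TGACGTCA was found in 1.79% of the windows and in that of Flcn, whose DM libraries both lay below both CM libraries. The 250 bases before the Flcn start are printed with that element in capitals.
Flcn, chr11:59810040-59810289, minus strand: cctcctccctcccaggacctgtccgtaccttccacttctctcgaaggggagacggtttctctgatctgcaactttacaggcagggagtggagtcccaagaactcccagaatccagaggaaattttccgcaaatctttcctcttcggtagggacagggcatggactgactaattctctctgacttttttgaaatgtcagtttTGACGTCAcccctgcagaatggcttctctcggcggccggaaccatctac
The E-box CACGTG (7.15% of windows), the CLEAR element TCACGTGA (0.974%), which contains the E-box, and the sequence TGATGCAA (0.895%) were in no window of the 10 genes. The windows of Prkaa1 and Prkag2, whose DM libraries also lay below both CM libraries, held none of the motifs searched. The matches thus did not cover all genes whose DM and CM libraries separated. These motifs were chosen with the values known. A match is a description of these letters and not a site of binding.

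Prkaa1 encodes AMPK α1, the catalytic subunit, at 15:5143861-5181899 on the plus strand (GENCODE, GRCm38). It was the only α subunit read in all libraries. Its level was 4.88 and 5.32 for CM, 4.42 and 4.52 for DM and 5.03 and 4.82 for DM+Met, or 200 to 377 reads. Both DM libraries lay below all 4 others, and the CM and DM+Met libraries overlapped. The difference between DM and CM was −0.63 (SE 0.30, 95% confidence interval −1.29 to 0.03, adjusted p 0.174), and DM+Met exceeded DM by 0.45 (−0.21 to 1.12, adjusted p 0.679). DM+Met differed from CM by −0.18 (−0.84 to 0.49, adjusted p 0.735). A decrease in DM of the size estimated, 0.646-fold on the CPM + 1 scale, was thus within the interval that also holds no change. The 3′ end of Prkaa1 lies within the antisense gene Gm15938 but shares no exon with it.

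The other catalytic subunit, Prkaa2, had 32 reads in DM library 2 and 0 in the other 5 libraries, and was not tested. A floor of 3 reads corresponds to a log2 level of 0.323 to 0.469 in these libraries, and floors and counting intervals cover counting error only. Reads that share a molecule cannot be recognised in these data.

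Prkag2 encodes AMPK γ2, a subunit that binds adenine nucleotides, at 5:24862744-25100642 on the minus strand. It had the widest difference among the 10 genes between DM+Met and DM. Its level was 3.09 and 3.48 for CM, 2.02 and 3.09 for DM and 4.09 and 4.36 for DM+Met. In reads this was 66 and 79, then 30 and 85, then 191 and 232, so both DM+Met libraries exceeded all 4 others. DM+Met exceeded DM by 1.67 (SE 0.51, 95% confidence interval 0.52 to 2.81), which is 3.18-fold on the CPM + 1 scale, with an unadjusted p of 0.00885 and an adjusted p of 0.348 in the limma fit over all rows. Of the tested rows, 99.39% had a smaller signed difference in that comparison. The value depended on DM library 1, the lowest of the 6, since without it the difference was 1.13 and without DM library 2 it was 2.20. Between DM and CM the difference was −0.73 (−1.87 to 0.42, adjusted p 0.361), and −0.19 without DM library 1. Its difference between DM+Met and CM was 0.94 (−0.21 to 2.08, adjusted p 0.254). The antisense gene Prkag2os1, which overlaps exons of Prkag2 away from its 3′ end, had 3 and 17 reads in DM+Met and 0 in the other 4 libraries.

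The γ1 subunit gene Prkag1 had more reads than Prkag2 in every library, 476 to 880. Its libraries overlapped in all 3 comparisons, and DM+Met differed from DM by −0.12 (−0.64 to 0.40). The ratio of Prkag1 to Prkag2 reads within a library was 9.21 and 6.03 for CM, 19.7 and 10.4 for DM and 3.45 and 3.69 for DM+Met. The γ3 gene Prkag3 had a single read in all libraries together.

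The scaffolding subunits were Prkab1 and Prkab2. Prkab1 was read 17 and 136 times for CM, 158 and 152 for DM and 263 and 294 for DM+Met, so CM library 1 stood apart from the rest. DM+Met exceeded CM by 1.73 (0.13 to 3.32, adjusted p 0.135), and by 0.40 without CM library 1. Prkab2 had 91 to 188 reads, with differences of 0.35 between DM and CM and −0.26 between DM+Met and DM, which were 0.13 and −0.03 without DM library 1. Of the 5 tested AMPK subunit genes none was called in any comparison, where 0.0548% to 16.9% of all rows were.

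Stk11 encodes LKB1, the kinase that phosphorylates AMPK α, at 10:80115803-80130682 on the plus strand. Its level was 6.47 and 6.67 for CM, 7.06 and 6.93 for DM and 6.97 and 6.83 for DM+Met. Both CM libraries lay below the 4 libraries of dialyzed media, which overlapped with each other. DM exceeded CM by 0.42 (SE 0.18, 95% confidence interval 0.02 to 0.82, adjusted p 0.134), and DM+Met exceeded CM by 0.33 (−0.07 to 0.73, adjusted p 0.255). DM+Met differed from DM by −0.09 (−0.49 to 0.30, adjusted p 0.926). When the libraries were scaled by their totals in place of TMM, DM+Met exceeded CM by 0.72 with an adjusted p of 0.0231 in limma. That scaling moved the median difference of all rows from 0.061 to 0.409 in the same comparison.

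The Stk11 level is uncertain because its 3′ end, exons included, is overlapped on the opposite strand by Cbarp. Cbarp is listed in the data under its synonym Dos and had 521 and 639 reads for CM, 957 and 1127 for DM and 1299 and 1195 for DM+Met. The reads of Stk11 were 771 and 788, then 1296 and 1369, then 1480 and 1345. Dos had 0.676 to 0.888 reads for each Stk11 read. Both genes had their lowest counts in CM. Whether strand was used in counting is not given in the sources used here, so reads of these genes cannot be told apart.

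Sesn1 and Sesn3 encode sestrins, which inhibit GATOR2 and so mTORC1 and are induced by FOXO factors or p53. Sesn1 (10:41809935-41908424, plus strand) had levels of 4.07 and 4.10 for CM, 4.64 and 4.98 for DM and 4.73 and 4.52 for DM+Met. Both CM libraries lay below the other 4, with 126 and 139 reads against 235 to 347. DM exceeded CM by 0.73 (SE 0.32, 95% confidence interval 0.01 to 1.44, adjusted p 0.147), and DM+Met exceeded CM by 0.54 (−0.18 to 1.25, adjusted p 0.299). DM+Met differed from DM by −0.19 (−0.90 to 0.53).

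Sesn3 (9:14275067-14333101, plus strand) stood in contrast with overlapping libraries in all 3 comparisons. Its level was 5.39 and 5.57 for CM, 5.21 and 5.68 for DM and 5.53 and 5.28 for DM+Met. The differences were −0.03 between DM and CM (−0.62 to 0.55), −0.04 between DM+Met and DM (−0.63 to 0.54) and −0.08 between DM+Met and CM (−0.66 to 0.51). The intervals leave room for a difference between −0.66 and 0.55. The ratio of Sesn3 to Sesn1 reads was 2.59 and 2.88 for CM, 1.51 and 1.65 for DM and 1.76 and 1.73 for DM+Met. Sesn2, the sestrin known as a leucine sensor, had 0 to 27 reads per library, with a difference of −0.94 between DM and CM (−2.33 to 0.45). DM library 1 had 0 reads of Sesn2, and without it the difference was −0.33.

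**Figure D2:**
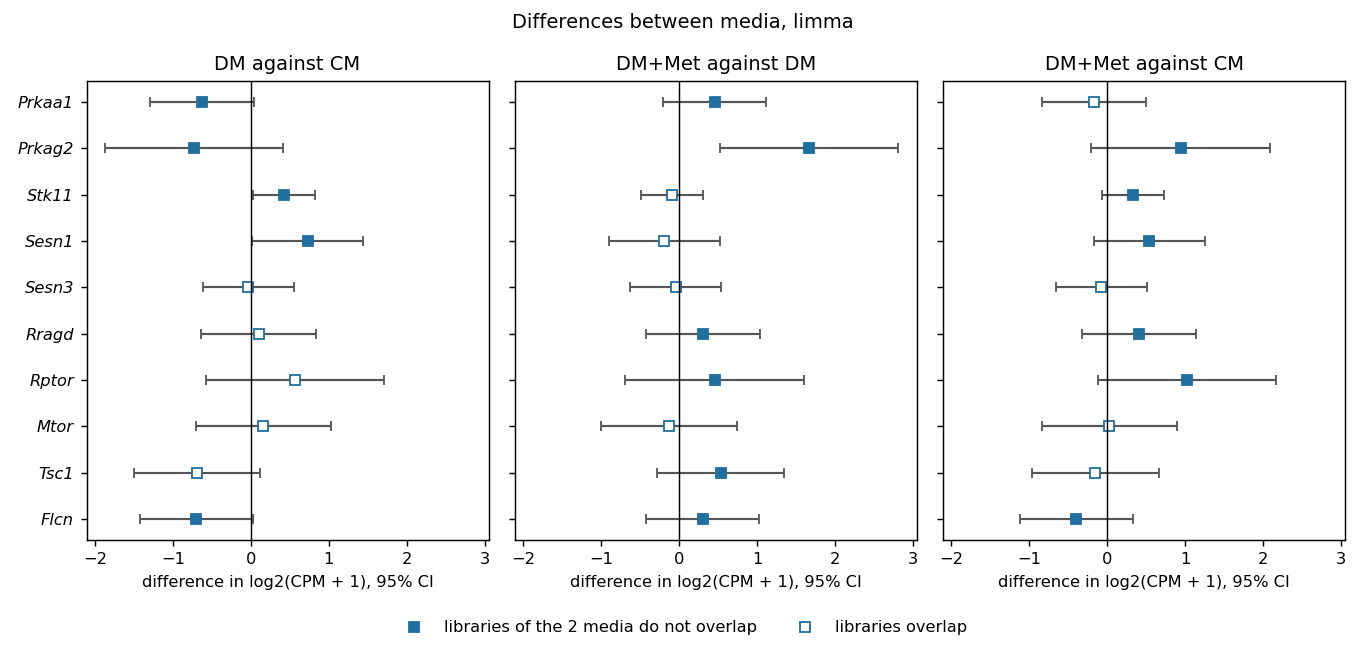
Difference of each gene in log2(CPM + 1) on the horizontal axis, with its 95% confidence interval from limma, in the 3 comparisons. Filled squares mark genes whose libraries of the 2 media did not overlap. The intervals of Stk11 and Sesn1 between DM and CM and of Prkag2 between DM+Met and DM exclude 0 before adjustment.

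Rragd encodes RagD, a GTPase that recruits mTORC1 to lysosomes together with RagA or RagB, at 4:32983037-33022180 on the plus strand. Its level was 4.22 and 4.67 for CM, 4.35 and 4.74 for DM and 4.93 and 4.76 for DM+Met. Both DM+Met libraries lay above the other 4 by a small margin, 4.761 in DM+Met library 2 against 4.738 in DM library 2. DM+Met exceeded DM by 0.30 (SE 0.33, 95% confidence interval −0.43 to 1.03, adjusted p 0.836) and CM by 0.40 (−0.33 to 1.13, adjusted p 0.456). DM differed from CM by 0.10 (−0.63 to 0.83). With each library left out in turn, the difference between DM+Met and DM ranged from 0.11, without DM library 1, to 0.497, without DM library 2, and that between DM+Met and CM from 0.18, without CM library 1, to 0.62, without CM library 2.

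Among its partners, Rragc, encoding RagC, differed by 0.12 between DM and CM and −0.24 between DM+Met and DM. The first value was −0.41 without CM library 1 and 0.65 without CM library 2. Rraga, encoding RagA, differed by −0.31 and 0.57, and by 0.006 and 0.26 without DM library 1. Rragb had 0 to 14 reads per library and was not tested. No gene of the 8 tested for Rag GTPases and Ragulator was called in any comparison, where 0.0548% to 16.9% of all rows were.

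Flcn encodes folliculin, the GTPase-activating protein for RagC and RagD, at 11:59791408-59810016 on the minus strand. Its level was 4.76 and 5.09 for CM, 4.37 and 4.08 for DM and 4.66 and 4.40 for DM+Met. The CM libraries were highest, the DM libraries lowest and the DM+Met libraries in between, with no overlap between any 2 media. DM+Met and DM were apart by a small margin, 4.397 in DM+Met library 2 against 4.37 in DM library 1. With each library left out in turn, DM+Met exceeded DM by 0.16 to 0.45. DM differed from CM by −0.70 (SE 0.32, 95% confidence interval −1.42 to 0.02, adjusted p 0.165). DM+Met exceeded DM by 0.30 (−0.42 to 1.02, adjusted p 0.834) and differed from CM by −0.40 (−1.12 to 0.32, adjusted p 0.453).

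Fnip1, which encodes a folliculin-interacting protein and binding partner of folliculin, did pass the test, with higher levels in the dialyzed media. It was read 1057 and 810 times for CM, 1730 and 2007 for DM and 2504 and 2193 for DM+Met. It rose by 0.66 between CM and DM (SE 0.17, adjusted p 0.0258 in limma) and was 0.81 higher in DM+Met than in CM (adjusted p 0.0105). The call between DM and CM was lost without any 1 of the 6 libraries (0.55 to 0.76, adjusted p 0.0748 to 0.123), and that between DM+Met and CM without any 1 of the CM and DM+Met libraries (0.70 to 0.92, adjusted p 0.0508 to 0.167). Fnip2 had 0 to 43 reads, with no call. In reads, Fnip1 exceeded Flcn 4.62-fold and 3.14-fold for CM, 8.96-fold and 11.2-fold for DM and 8.66-fold and 9.18-fold for DM+Met. Both CM ratios lay below the other 4.

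Rptor encodes raptor, the substrate-recruiting subunit of mTORC1 and an AMPK substrate, at 11:119602905-119899576 on the plus strand. Its level was 3.40 and 2.28 for CM, 3.26 and 3.55 for DM and 3.93 and 3.78 for DM+Met. Both DM+Met libraries lay above the other 4, and CM library 2 was lowest with 30 reads against 84 in CM library 1. DM+Met exceeded CM by 1.02 (SE 0.51, 95% confidence interval −0.12 to 2.16, adjusted p 0.215), the widest difference among the 10 genes in that comparison. It was 0.46 without CM library 2 and 1.58 without CM library 1. The difference between DM and CM was 0.56 (−0.58 to 1.71) and fell to 0.001 without CM library 2. DM+Met differed from DM by 0.45 (−0.69 to 1.60, adjusted p 0.843).

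Mtor, at 4:148448611-148557683 on the plus strand, encodes the kinase of mTORC1 and mTORC2. Its level was 3.91 and 4.28 for CM, 3.90 and 4.60 for DM and 4.07 and 4.17 for DM+Met. The libraries overlapped in all 3 comparisons. The differences were 0.16 between DM and CM (−0.71 to 1.03), −0.13 between DM+Met and DM (−1.003 to 0.74) and 0.03 between DM+Met and CM (−0.84 to 0.90).

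Of the partners of mTOR, Mlst8, which encodes the mLST8 subunit shared by both complexes, passed the test between DM and CM. It had 229 and 144 reads for CM, 42 and 89 for DM and 192 and 152 for DM+Met. It fell by 1.75 in DM (SE 0.45, adjusted p 0.0264 in limma), and the call was lost without any 1 of the 6 libraries (differences of −2.12 to −1.37, adjusted p 0.0547 to 0.139). DM+Met exceeded DM by 1.16 (0.17 to 2.16, adjusted p 0.439). The ratio of Mlst8 to Mtor reads was 1.86 and 1 for CM, 0.307 and 0.337 for DM and 1.02 and 0.749 for DM+Met, so DM lay below the other media. Rictor, encoding the defining subunit of mTORC2, had 868 to 1413 reads and differed by 0.07 between DM and CM (−0.35 to 0.48) and by −0.14 between DM+Met and DM (−0.56 to 0.28).

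Tsc1 encodes hamartin, which stabilises TSC2 in the complex that inactivates Rheb, at 2:28641228-28691167 on the plus strand. Its level was 5.44 and 4.79 for CM, 4.01 and 4.84 for DM and 4.98 and 4.93 for DM+Met. DM library 1 was lowest with 148 reads, while DM library 2, with 312 reads, lay within the range of CM. The difference between DM and CM was −0.69 (SE 0.36, 95% confidence interval −1.503 to 0.12, adjusted p 0.222), and −0.28 without DM library 1. DM+Met exceeded DM by 0.53 (−0.28 to 1.35, adjusted p 0.694), with both DM+Met libraries above both DM libraries, and by 0.12 without DM library 1. DM+Met differed from CM by −0.16 (−0.97 to 0.66).

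Tsc2, encoding tuberin, the catalytic partner of TSC1 and an AMPK substrate, rose in both dialyzed media. It had 111 and 150 reads for CM, 451 and 388 for DM and 670 and 720 for DM+Met. It was 1.29 higher in DM than in CM (SE 0.30, adjusted p 0.0183) and 1.84 higher in DM+Met than in CM (SE 0.30, adjusted p 0.0035). The call between DM and CM was lost without CM library 1 (1.01, adjusted p 0.102), DM library 1 (1.09, adjusted p 0.116), DM library 2 (adjusted p 0.0633) or either DM+Met library (1.29, adjusted p 0.0811 and 0.0823). The call between DM+Met and CM was lost without either DM+Met library (adjusted p 0.0879 and 0.105). The ratio of Tsc2 to Tsc1 reads was 0.299 and 0.721 for CM, 3.05 and 1.24 for DM and 1.84 and 2.05 for DM+Met. Tsc1 thus outnumbered Tsc2 in both CM libraries and Tsc2 outnumbered Tsc1 in the other 4.

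**Figure D3:**
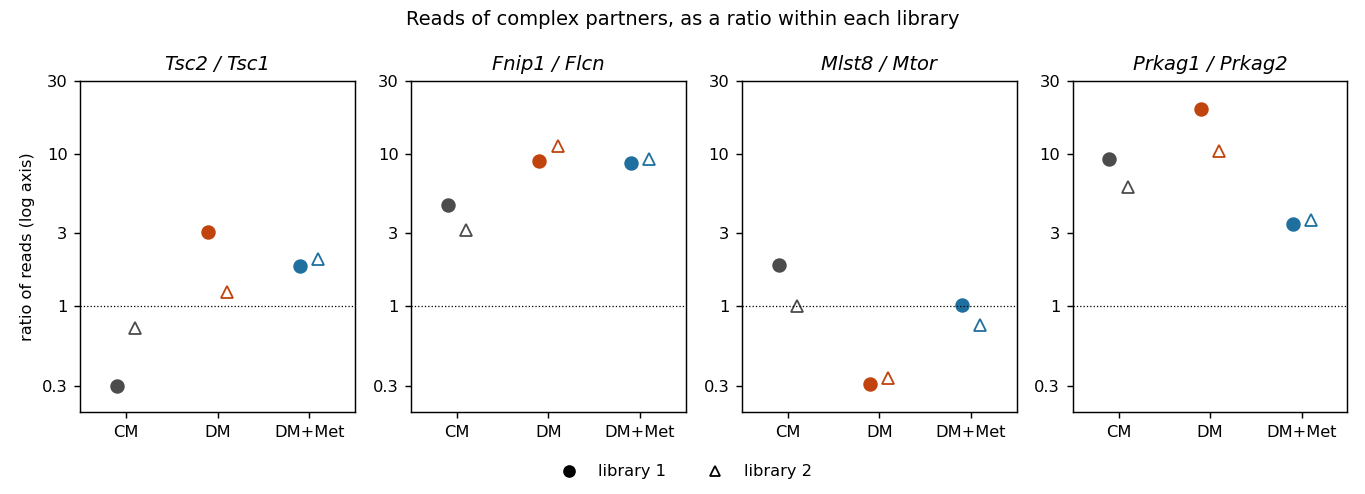
Reads of a partner gene divided by reads of 1 of the 10 genes within each library, on a log axis, for Tsc2 over Tsc1, Fnip1 over Flcn, Mlst8 over Mtor and Prkag1 over Prkag2. The dotted line marks equal reads. Both CM libraries lie below the other 4 for Tsc2 over Tsc1 and Fnip1 over Flcn, both DM libraries below the other 4 for Mlst8 over Mtor, and both DM+Met libraries below the other 4 for Prkag1 over Prkag2.

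The 4 ratios plotted need no scaling between libraries. The pairs for the ratios were picked after the values had been seen, so the ratios are given without a test.

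Counting the 10 genes by library, 5 had libraries that did not overlap between DM and CM, with Stk11 and Sesn1 above and Prkaa1, Prkag2 and Flcn below, against 54.1% of all tested rows. For DM+Met and DM there were 6, all with DM+Met above (Prkaa1, Prkag2, Rragd, Rptor, Tsc1 and Flcn), against 41% of all rows in either direction. Rragd and Flcn were apart there by a small margin. For DM+Met and CM there were 6, with Prkag2, Stk11, Sesn1, Rragd and Rptor above and Flcn below, against 60.9% of all rows. The counts against CM are near the background, and the widest gap to it, which was not tested, is that between DM+Met and DM. The median difference of the 10 genes was 0.03 between DM and CM against 0.07 over all rows, 0.30 against 0.01 between DM+Met and DM, and 0.18 against 0.06 between DM+Met and CM. The 3 comparisons share libraries, so a low DM library enters DM against CM and DM+Met against DM with opposite signs.

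Part of the spread exceeded counting error. Of the 30 pairs of libraries of a medium, 10 had exact 95% Poisson intervals that did not overlap, 4 in CM and 6 in DM, and none of the 10 pairs in DM+Met. The higher library exceeded the lower by a median of 1.33-fold in CM, 1.30-fold in DM and 1.14-fold in DM+Met. The widest gaps were for Rptor in CM, 9.57 and 3.84 CPM, and Prkag2 in DM, 3.06 and 7.50 CPM. Tsc1 differed 1.59-fold between CM libraries and 1.83-fold between DM libraries, but 1.03-fold between DM+Met libraries.

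**Figure D4:**
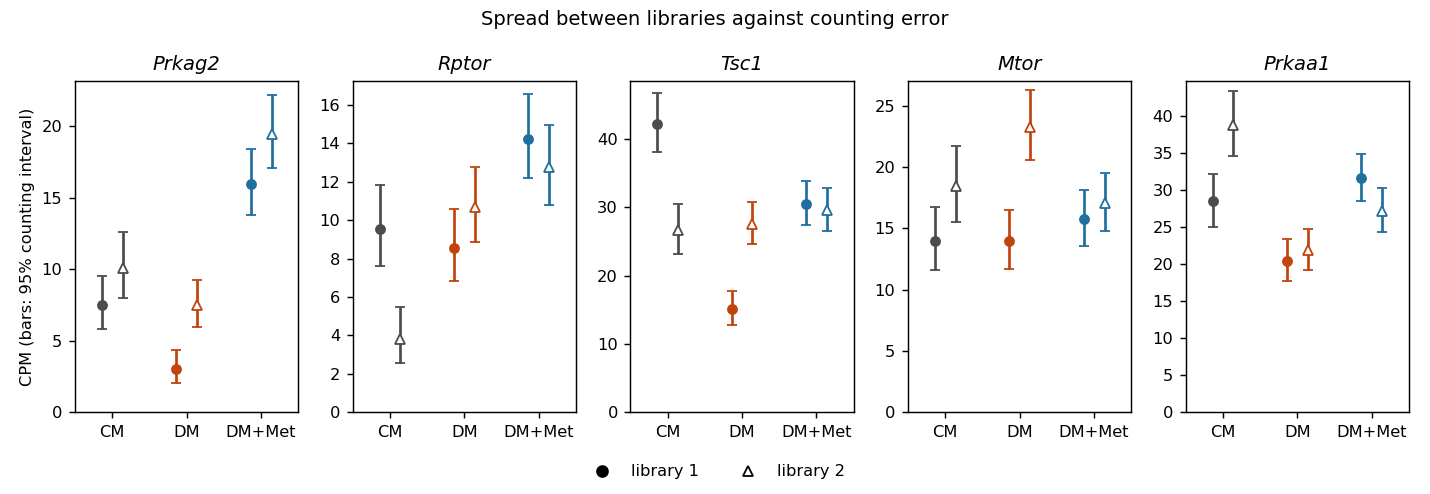
CPM of Prkag2, Rptor, Tsc1, Mtor and Prkaa1 in each library, with exact 95% Poisson intervals of the reads as bars. The bars of the 2 DM libraries are apart for Prkag2, Tsc1 and Mtor, those of the 2 CM libraries for Rptor, Tsc1 and Prkaa1, and those of the 2 DM+Met libraries overlap in all 5 panels.

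The other genes of the pathway were read from 14 lists by role, of which 77 genes that are not among the 10 were tested. Between DM and CM 9 of the 77 were called (11.7%, against 16.9% of all rows), 4 higher and 5 lower in DM. None of the 77 were called between DM+Met and DM (0 of 77, against 0.0548% of all rows). In that comparison 6 were at an unadjusted p below 0.05 in limma, against 1238 of all 12770 rows. In DM+Met, 8 of 77 differed from CM (10.4%, against 15.3% of all rows), 4 higher and 4 lower. The median difference of the 77 genes was 0.07 between DM and CM, the same to 2 decimals as over all rows.

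In the list of mTORC1 outputs, Eif4ebp1 encodes 4E-BP1, the translation repressor that mTORC1 phosphorylates. It had 1122 and 868 reads for CM, 608 and 487 for DM and 413 and 337 for DM+Met. It fell by 1.19 in DM (SE 0.25, adjusted p 0.0114) and was 1.90 lower in DM+Met than in CM (adjusted p 0.0011). Its paralog Eif4ebp3 had 103 and 144 reads for CM, 323 and 250 for DM and 542 and 568 for DM+Met. The Eif4ebp3 level was 1.60 higher in DM+Met than in CM (SE 0.34, adjusted p 0.0117), so both paralogs passed the test in that comparison with opposite signs. With a library left out, the Eif4ebp1 call in DM held only without DM library 1, with adjusted p 0.0508 to 0.0985 without any of the other 5, and its call in DM+Met was lost without DM+Met library 2 (−1.76, adjusted p 0.0522). The Eif4ebp3 call was lost without CM library 1 (adjusted p 0.0867) or either DM+Met library (adjusted p 0.157 and 0.176).

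Ddit4 encodes REDD1, an inhibitor of mTORC1 that acts through the TSC complex. It had 8522 and 8833 reads for CM, 5507 and 3240 for DM and 3489 and 3618 for DM+Met. It fell by 1.38 in DM (SE 0.26, adjusted p 0.0071) and was 1.81 lower in DM+Met than in CM (adjusted p 0.0017). Atf4, the transcription factor of the amino acid response, fell by 0.92 in DM (SE 0.17, adjusted p 0.0059), from 4024 and 4664 reads to 2548 and 3319, and was 0.94 lower in DM+Met than in CM (adjusted p 0.0050). The Ddit4 call in DM was lost without CM library 1, CM library 2 or DM+Met library 2 (adjusted p 0.0763, 0.0924 and 0.0502), and its call in DM+Met without CM library 2 or either DM+Met library (adjusted p 0.0525 to 0.0699). The Atf4 call in DM was lost without CM library 2, DM library 1 or DM library 2 (adjusted p 0.0631, 0.0770 and 0.0556), and its call in DM+Met without CM library 2 or either DM+Met library (adjusted p 0.0612 to 0.111).

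Foxo4, a forkhead factor of the family that acts on sestrin genes, rose by 1.80 in DM (SE 0.28, adjusted p 0.0029) and was 1.93 higher in DM+Met than in CM (adjusted p 0.0017). It had 108 and 141 reads for CM, 582 and 566 for DM and 731 and 693 for DM+Met. Its listed relatives Foxo1, with 1031 to 2046 reads per library, and Foxo3, with 0 to 55, were not called in any comparison. Between DM and CM they differed by 0.075 (−0.32 to 0.47) and −0.25 (−2.27 to 1.77). Snrk, an AMPK-related kinase, rose by 1.26 in DM (SE 0.29, adjusted p 0.0164), from 131 and 144 reads to 414 and 454. Tbc1d1, an AMPK substrate that controls vesicle traffic, was 0.96 lower in DM+Met than in CM (SE 0.25, adjusted p 0.0290), with 293 and 349 reads against 441 and 439. Prr5, which encodes the mTORC2 subunit protor-1, had 26 and 50 reads in CM and 0 in both DM libraries. Its mean CPM in CM was 16.4 times a floor of 3 reads in each DM library. That ratio leaves out the spread between libraries. The limma difference between DM and CM was −2.44 (95% confidence interval −3.73 to −1.14, adjusted p 0.0200).

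These calls were also lost when libraries were left out, which leaves fewer samples in the fit. The differences of Foxo4, Snrk, Prr5 and Tbc1d1 kept their sign in all of these fits. That of Foxo4 in DM was lost without DM library 1 (1.68, adjusted p 0.0544) and that in DM+Met without either DM+Met library (adjusted p 0.0701 and 0.0658). The Snrk call held only without CM library 2, with adjusted p 0.0588 to 0.0799 without any of the other 5. The Prr5 call was lost without any 1 of the 6 libraries (adjusted p 0.0539 to 0.0945), and the Tbc1d1 call without any 1 of the CM and DM+Met libraries (adjusted p 0.0929 to 0.245).

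**Figure D5:**
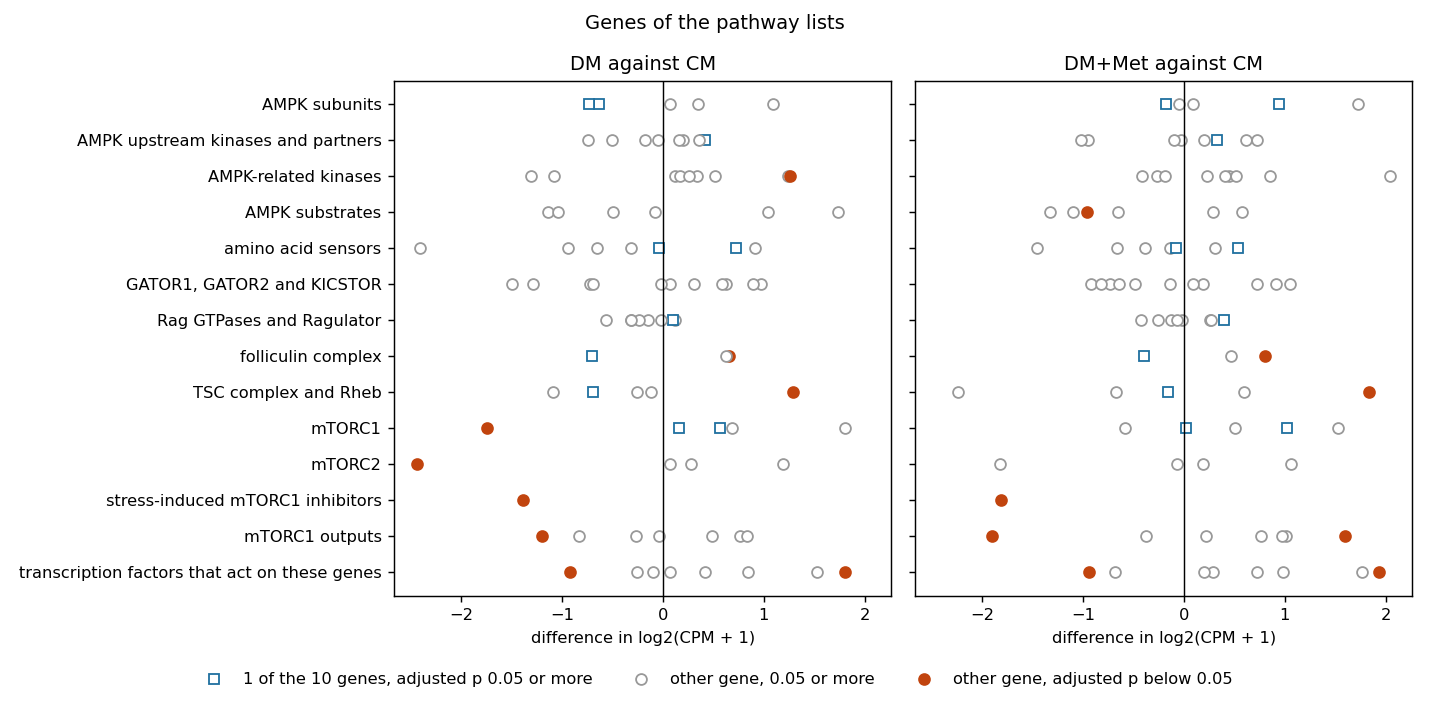
Difference in log2(CPM + 1) of each tested gene of the 14 lists, by list, between DM and CM and between DM+Met and CM. Squares are the 10 genes, circles the others, and filled circles passed the test. No square is filled, and filled circles lie on both sides of 0 in both panels.

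The lists of amino acid sensors (7 genes tested), of GATOR1, GATOR2 and KICSTOR (11 genes), and of upstream kinases and partners of AMPK (8 genes) had no call in any comparison. Over all rows 16.9% were called between DM and CM, 15.3% between DM+Met and CM and 0.0548% between DM+Met and DM. Lists this short therefore cannot show a shortage of calls. The medians of these lists between DM and CM were −0.31, 0.07 and 0.06, against 0.07 over all rows. The list of AMPK substrates (6 genes) had a median of −0.80 between DM+Met and CM, against 0.06 over all rows, with the single call of Tbc1d1. Its differences ran from −1.33 to 0.58. Medians of the other lists in that comparison lay on both sides of 0, as with 0.765 for mTORC1 outputs and −0.14 for GATOR1, GATOR2 and KICSTOR. No list median was tested.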

How the data were processed

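The authors deposited log2(CPM + 1) with TMM scaling, rounded to 3 decimals, for 23282 gene rows and 6 libraries. The submitters' processing notes name Bowtie2, bedtools and mm10. Strand treatment, counting settings and annotation are not given in the sources used here. QuantSeq libraries were made from 500 ng of RNA. Equal steps in the values gave whole reads, with at least 99.776% of values of up to 300 reads within 0.1 of a whole number.

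Rows with at least 0.946 CPM (10 reads at median depth) in 2 libraries and 15 reads in all were tested, leaving 12770. The fit used limma 3.58.1 in R 4.3.3 (lmFit, eBayes with an intensity trend) over the 3 media without covariates. Tests were two-sided with Benjamini-Hochberg adjustment over all rows and a threshold of 0.05. Fold changes on this scale understate those of genes with few reads. Each medium is a single GEO sample with 2 numbered files, taken as replicates from the study's statement, so p-values measure the spread between these files.

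The members and lists were chosen with earlier results of these data known. All 10 members are named, other pathway genes where called in any comparison, and paralogs and partners (Prkaa2, Prkab1, Prkab2, Prkag1, Prkag3, Sesn2, Rraga, Rragb, Rragc, Tsc2, Fnip1, Fnip2, Rictor, Mlst8) called or not. Foxo1 and Foxo3 are named beside Foxo4. Of 85 listed non-members, 84 matched a row, 3 of them by a RefSeq synonym. Gene positions are from GENCODE vM21. No protein sequence was used here.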

Additional observations from a re-analysis of the deposited data

How the results depend on the processing

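Under 15 other settings and 1 more chosen after seeing the data (library totals without Rn45s), the count of the 10 genes called stayed at 0 between DM and CM and between DM+Met and DM. Between DM+Met and CM it was 1, Stk11, with library totals in place of TMM, and 0 in the other 15. Library totals moved the median difference of all rows to 0.34 between DM+Met and DM and 0.41 between DM+Met and CM, so differences on that scale are to be read against those medians. With them the difference reversed for Stk11 (0.27), Sesn1 (0.16), Sesn3 (0.31) and Mtor (0.21) between DM+Met and DM, and for Prkaa1 (0.21), Sesn3 (0.31) and Tsc1 (0.23) between DM+Met and CM. Without Rn45s in the totals Sesn3 reversed to 0.12 between DM and CM and to 0.043 between DM+Met and CM. Leaving out each library in turn turned the sign of 9 differences that lay near 0. Between DM and CM the range was −0.27 to 0.20 for Sesn3, −0.13 to 0.32 for Rragd and −0.19 to 0.51 for Mtor. For DM+Met and DM it was −0.28 to 0.19 for Sesn3 and −0.48 to 0.22 for Mtor. For DM+Met and CM it was −0.39 to 0.041 for Prkaa1, −0.20 to 0.044 for Sesn3, −0.16 to 0.21 for Mtor and −0.48 to 0.17 for Tsc1.

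Of the 77 other genes, 9 were called between DM and CM, but 4 with only the 2 media compared, 5 without an intensity trend and 2 to 4 with a library left out. Between DM+Met and CM, 8 were called, but 16 with library totals, 4 without a trend and 0 to 8 with a library left out. The cause was not tested. Fits with a library left out or with only 2 media hold fewer samples, while those without a trend or with library totals hold all of them. None of the 77 was called between DM+Met and DM under any alternative. The numbers of the libraries did not pair them, with correlations of deviations of −0.0247, 0.00476 and −0.0303. With a replicate block the 10 genes had 0, 0 and 0 calls and the other genes 10, 0 and 10 in the 3 comparisons. With 2 libraries per medium, a lone library left in a medium is assumed to vary like the others. A median SE of 0.439 and as few as 30 reads in a library for Prkag2 and Rptor limit what can be detected.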
